A study of Mus musculus with 2 samples.

Results

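The genes described here are the ligands, receptors and adaptors through which insulin-like growth factors, insulin and growth hormone reach muscle. They are Igf1, Igf2, Igf1r, Igf2r, Insr, Irs1, Irs2, Grb10 and Ghr. Their probes were found by gene name among the probes that are not controls, which gave 17 of 55680 probes on the arrays. Igf1 had 5 probes, Insr 3, Irs1 and Ghr 2 each, and the other 5 genes 1 each. The mice were males of strain CD2F1/Slc, 11 weeks old, and RNA was taken from their skeletal muscle. The control array held muscle of the group injected with 100 µL of PBS, and the C26 array muscle of the group given 1000000 colon 26 carcinoma cells in the same volume under the skin of the flank. This tumour is used as a model of cancer cachexia, a wasting of muscle and fat. The study's title asks about Igf1 expression under mechanical loading, but no loading is named in the labels. They also do not say which muscle was used, how long the tumour grew, or whether RNA of several animals was pooled.

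IGF1 is a secreted peptide that muscle makes for itself and that liver releases into blood under the control of growth hormone. It binds the receptor tyrosine kinase encoded by Igf1r, while insulin binds its close relative encoded by Insr. Both receptors phosphorylate the adaptors IRS1 and IRS2, which recruit PI3 kinase and so activate AKT. AKT favours protein synthesis and keeps FoxO transcription factors out of the nucleus, where they would otherwise switch on genes of protein breakdown. Irs2 and Insr are themselves known as genes that FoxO factors can activate when insulin is low.

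Each group had 1 array, so no value has a biological replicate, no test was run, and every difference is one between these 2 arrays. All 17 probes were well above background on both arrays, and none of their 31 spots per array was flagged. The lowest processed signal among them was 67.4, against 18.5 and 14.1 for the dimmest probe called well above background on the control and C26 arrays. A level below is the processed signal divided by the array's 75th percentile, with 262 (control) and 249 (C26) as that percentile. A ratio is the log2 of the C26 level over the control level, and the error beside it is the scanner software's own, carried to log2. That error covers measurement of spots and says nothing of the spread between animals. In whole tissue, fewer cells of a type and less RNA per cell cannot be told apart.

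Markers of muscle fibres bore out the labelled tissue. All 9 were well above background on both arrays, with processed signals from 6362 to 421408 in the control and from 4830 to 410814 in C26. Their summed level was 7415 in the control and 7472 in C26, and their median ratio was 0.03, or between -0.14 and 0.03 under the other settings. Genes of other cells differed more. All 8 fibroblast markers were lower in C26 (median ratio -0.92, summed level 877 and 491), as were all 9 measured macrophage markers (median -0.34, summed level 31.6 and 23.1) and all 5 measured satellite cell markers (median -0.60, summed level 38.6 and 22.6). The satellite cell median was -0.23 with normexp and -0.17 without background correction, and without Cd34, which other cells express too, the summed level was 1.77 and 1.43. Cd34, singled out after its values were seen, stood at -0.80 with 1 probe and -0.11 with the other. The macrophage marker Cd163 (0.85, error 0.73) was not above background on the control array, and the satellite cell marker Myf5 was not on either. Mrc1, C1qa, C1qb and C1qc, also macrophage markers, stood at -0.17, -0.12, -0.14 and -0.05, each smaller than its scanner error. The 3 macrophage markers past 2-fold lower were Itgax (-4.26), Cd68 (-1.35) and Ms4a7 (-1.29), where 1.15% of all measured genes were so. In their weakest alternatives Itgax stood at -2.23 and Ms4a7 at -0.82. Csf1r had 2 other measured probes, at -0.56 and 0.03. Of the fibroblast markers, the 3 past 2-fold lower were the collagens Col1a1 (-1.81), Col1a2 (-1.45) and Col3a1 (-2.00). The others ran from -0.92 (Cd248) to -0.32 (Dcn), with Pdgfra at -0.39. All 6 measured hepatocyte markers were higher in C26 or, with some scalings, 5 of them (median 1.15, summed level 35.3 and 60.8), and Apoa1 was above background on the C26 array alone. All 7 endothelial markers (median 0.52, summed level 47.2 and 62.2; 5 to 7 of them above 0 in other settings), 5 of 7 adipocyte markers (4 of 7 in some settings; median 0.31, summed level 192 and 259) and both measured erythroid markers of 5 (median 2.37, summed level 6.09 and 30.4) were higher. Among the endothelial markers, Kdr (0.01) and Cdh5 (0.04) were smaller than their errors of 0.20, and a second Kdr probe stood at -0.63. Of 7 epithelial and carcinoma markers 5 were measured, 3 of them higher (median 0.11, summed level 3.07 and 4.03), and Epcam and Krt8 were not above background. Beside these counts, 56.4% of all measured genes were above 0. The part of these cell types in the ratios of the members was not tested.

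Igf1 is shown first by its probes, since their ratios differed. Each probe has 60 bases and is named here by the base of its listed transcript at which it starts. A stretch of 30 bases of each is printed 5′ to 3′ on the plus strand of chromosome 10, build mm9. Capitals mark bases that lie within the overlap of the probes at 889 and 909, which share 40 bases.
Igf1 889: aacaataataAGTCCAATAACATTACAAAG
Igf1 909: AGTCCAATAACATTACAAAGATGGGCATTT
Igf1 3252: agaaatgtaaatggaataagaggtcagctg
Igf1 6909: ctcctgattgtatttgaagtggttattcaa
Igf1 1027: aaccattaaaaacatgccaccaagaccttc
The printed stretches lie at chr10:87393571-87393600, chr10:87393581-87393610, chr10:87395924-87395953, chr10:87399581-87399610 and chr10:87378456-87378485, in that order. The first 4 probes are listed under the same 4 RefSeq transcripts, NM_010512 among them. The probes at 909 and 6909 are 6000 bases apart both in that transcript and in the genome, so no intron lies between them. The probe at 1027 is listed under NM_184052 alone and sits 21125 bases upstream of the probe at 6909 in the genome. An mm9 annotation of coding and untranslated exons was not used here.

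The 3′-most probe gave the lowest Igf1 value. Its 2 spots read 2.13 and 2.24 on the control array and 1.21 and 1.24 on the C26 array. The spots did not overlap, and the ratio was -0.84 (error 0.14), which is 1.79-fold lower in C26. The probe at 889 read 1.497 and 1.5004 in the control and 1.22 and 1.24 in C26. Its neighbour at 909 read 1.91 and 1.97 in the control and 1.65 and 1.67 in C26. These overlapping probes gave -0.29 and -0.23 (error 0.14 each), a difference of 0.06 between them against an error of 0.20, so they measured nearly the same sequence and gave nearly the same ratio.

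The remaining Igf1 probes showed no lower value. At 3252 the spots read 0.71 and 0.72 in the control and 0.68 and 0.76 in C26, overlapping, with a ratio of -0.00019 (error 0.15) whose sign turned in 2 of 8 other settings. At 1027, the probe of the separate transcript, they read 3.24 and 3.44 in the control and 3.47 and 3.53 in C26. The C26 spots were the higher ones there, by 0.07 (error 0.14), which is smaller than the error. Copies of a probe on 1 array differed little, with standard deviations of 0.0022 to 0.11 on the log2 scale, so spot noise within an array was smaller than the scanner error.

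The Igf1 probes did not give 1 value for the gene. Its 5 probes averaged -0.26, with an SD of 0.36 among them. Of the 5 ratios 4 were below 0, where 56.2% of all measured probes were above 0. This count overstates the agreement among probes. Among the 4, the probe at 3252 stood at -0.00019 (error 0.15) and kept its sign in only 6 of 8 other settings. Those at 889 and 909 share 40 bases and are not separate measurements. The mean was -0.11 without the probe at 6909 and -0.34 without the one at 1027. The probes at 3252 and 6909, 3657 bases apart in 1 transcript, differed by 0.84 (error 0.21), or 4.06 times their joint error. Such spread is not rare here. Of 104 genes with 5 measured probes, 12 had a range at least as wide as the 0.90 of Igf1, which is itself counted. The probes of 67.3% of the 104 genes had both signs.

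**Figure D1:**
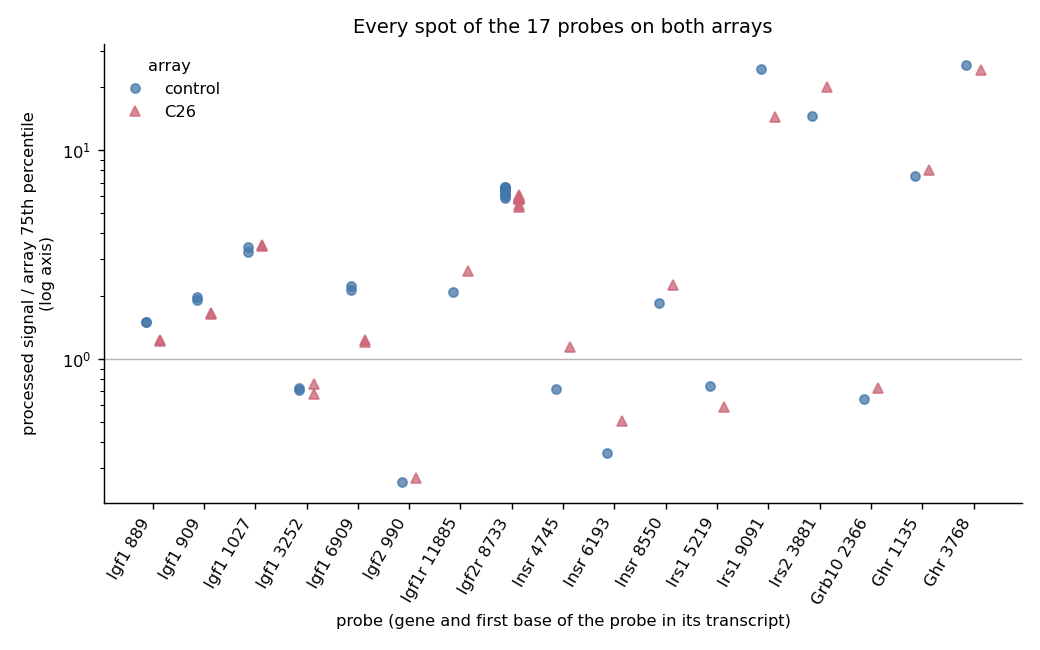
Level of every spot of the 17 probes (processed signal over the array's 75th percentile, log axis), control as circles and C26 as triangles. The C26 spots of the Igf1 probe at 6909 sit at 1.21 and 1.24 against 2.13 and 2.24, while those of Igf1 3252 and of Igf2r overlap the control.

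Fibroblasts and macrophages are known sources of Igf1 in muscle besides the fibres. Their marker lists were lower in C26, at the values and with the limits given above. Igf2, a growth factor expressed mainly before birth and imprinted so that the paternal copy is active, had 1 spot (chr7:149839661-149839720, mm9). It read 0.26 in the control and 0.27 in C26. The ratio of 0.07 (error 0.24) was smaller than its error.

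Of the receptors, Insr was higher in C26 with each of its 3 probes, all listed under NM_010568 on chromosome 8. The probe at 4745 (chr8:3155472-3155531, mm9) read 0.72 in the control and 1.14 in C26, a ratio of 0.66 (error 0.21), or 1.58-fold. The probe at 6193 (chr8:3154024-3154083) read 0.35 and 0.51, a ratio of 0.52 (error 0.22). The probe at 8550 (chr8:3151667-3151726) read 1.86 and 2.25, a ratio of 0.28 (error 0.20). The C26 spot was the brighter one each time, by more than 1 scanner error, and the highest ratio came from the 1 of the 3 probes that starts farthest upstream. The probes at 4745 and 8550 differed by 0.39 (error 0.29). Of 966 genes with 3 measured probes, 302 had a range at least as wide, Insr itself counted. With normexp correction the probe at 4745 stood at 0.49 and was no longer 1.5-fold higher; without background correction it stood at 0.48.

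Igf1r, the receptor of IGF1, was measured by 1 spot (chr7:75378461-75378520, mm9) that read 2.09 in the control and 2.64 in C26. The ratio was 0.34 (error 0.20), or 1.26-fold higher. Igf2r, the mannose 6-phosphate receptor that carries IGF2 to lysosomes and is active from the maternal copy, was printed in 10 copies. Its spots ran from 5.88 to 6.68 in the control (median 6.42) and from 5.32 to 6.08 in C26 (median 5.89), so the ranges overlapped. Taken position by position, the C26 spot was the lower one at all 10. The ratio was -0.13, and it was -0.19 with quantile normalization or loess. Its error of 0.06 was the smallest of the 17 because 10 copies were averaged. These copies share 1 array per group and are not replicates of a condition. The file places this probe at chr17:12875253-12875263 (mm9), which covers only part of its length.

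Ghr, the growth hormone receptor, had 2 probes listed under different RefSeq entries. In mice its transcripts encode either the full receptor or a shortened, secreted form, the growth hormone binding protein. The first 30 bases of each probe are shown because the probes are listed under different transcripts.
Ghr 3768: atctctttcatgcaggagagacagtgaaaa
Ghr 1135: cttgtgggcacctgcattcatatgcacata
They lie on the minus strand at chr15:3268137-3268166 and chr15:3277573-3277602 (mm9). The probe at 3768, listed under NM_010284, read 25.6 in the control and 24.1 in C26, a ratio of -0.09 (error 0.20). The probe at 1135, listed under NM_001048178 and NM_001048147, read 7.53 and 8.07, a ratio of 0.10 (error 0.20). Both ratios were smaller than their errors, and so was the difference of 0.19 (error 0.29) between them.

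Irs1, the first substrate of both receptors, was lower in C26 with both of its probes, and Irs2 was higher. The probe at 9091 (chr1:82229692-82229751, mm9) read 24.5 in the control and 14.4 in C26, a ratio of -0.77 (error 0.20), or 1.71-fold lower. The probe at 5219 (chr1:82233564-82233623) read 0.74 and 0.59, a ratio of -0.34 (error 0.21). The single Irs2 spot (chr8:11004490-11004549, mm9) read 14.5 in the control and 20.1 in C26, a ratio of 0.47 (error 0.20), or 1.39-fold higher. The Irs2 ratio exceeded that of Irs1 by 1.24 (error 0.29) with the probe at 9091 and by 0.81 (error 0.29) with the probe at 5219. The opposite signs held in all 8 other settings, several of which differ little from the main one. In these 8, Irs1 9091 lay between -0.87 and -0.77 and Irs2 between 0.37 and 0.47. Grb10, an adaptor that binds these receptors and restrains them (chr11:11833165-11833224, mm9), read 0.64 and 0.73, a ratio of 0.17 (error 0.21), within its error.

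The promoters of Irs1 and Irs2 are shown because these paralogs differed in sign. RefSeq's windows for build GRCm38.p6 were searched over the 250 bases before the start, on both strands, for the FoxO motifs AAAACAA and GTAAACA and the short glucocorticoid receptor motif AGAACA. The E-box CACGTG was added after the sequences were seen. Capitals mark matches, and the sequences run 5′ to 3′ on the minus strand.
Irs1 promoter: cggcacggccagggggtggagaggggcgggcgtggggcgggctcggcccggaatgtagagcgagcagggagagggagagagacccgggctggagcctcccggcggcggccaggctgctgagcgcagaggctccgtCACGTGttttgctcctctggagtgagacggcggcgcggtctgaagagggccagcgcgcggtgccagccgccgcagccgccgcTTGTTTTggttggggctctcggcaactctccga
Irs2 promoter: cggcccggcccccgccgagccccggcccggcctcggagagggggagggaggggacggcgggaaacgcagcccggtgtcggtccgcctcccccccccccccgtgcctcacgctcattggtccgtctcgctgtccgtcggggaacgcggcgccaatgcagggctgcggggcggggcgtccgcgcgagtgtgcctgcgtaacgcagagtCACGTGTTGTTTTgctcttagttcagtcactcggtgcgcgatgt
They lie at chr1:82291440-82291689 and chr8:11008930-11009179. Both windows held 1 CACGTG and 1 AAAACAA, the latter on the other strand as TTGTTTT. In Irs2 these matches adjoin, starting 44 and 38 bases before the start of the gene, whereas in Irs1 they start 115 and 33 bases before it. Of all 32851 windows, 8.11% held AAAACAA, 6.02% CACGTG and 0.32% both. Among the 13 windows of the 8 members in the table, AAAACAA was found in 2 (Irs1 and Irs2), CACGTG in 3, AGAACA in 1, of Igf2 (16.1% of all windows) and GTAAACA in 0 (3.17% of all). A match describes letters in this window only.

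None of the 17 probes was 2-fold different, against 2.30% of the 26781 measured probes. Past 1.5-fold were 1 probe higher, Insr 4745, where 4.48% of all measured probes were higher, and 2 lower, Igf1 6909 and Irs1 9091, where 4.86% were lower. Of the 17 ratios, 9 were above 0 and 8 below (52.9% above 0, beside 56.2% of all measured probes). More than 2 scanner errors from 0 were 5 ratios. The share of all measured probes past that size was not computed, so this count cannot be called high or low. The median was 0.07, beside 0.04 for all measured probes. The median size of a ratio without its sign was 0.28, beside 0.20 for all. In rank among all measured probes, 1.92% had a lower ratio than Igf1 6909 and 2.48% a lower one than Irs1 9091, while 96.9% lay below Insr 4745 and 92.7% below Irs2.

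**Figure D2:**
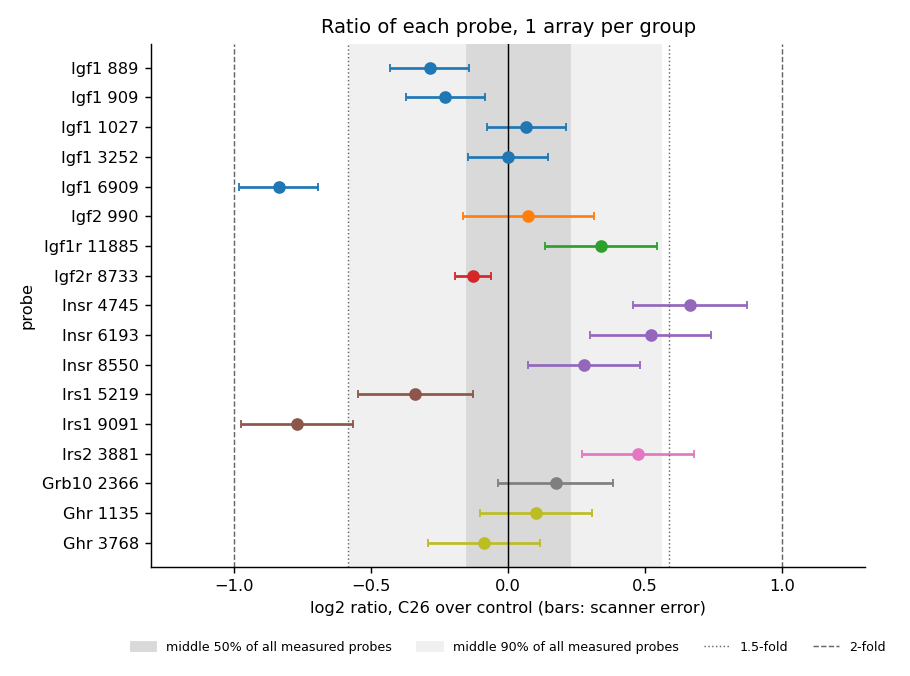
Log2 ratio of C26 over control for each of the 17 probes with the scanner error as bars, 1 array per group. Grey bands hold the central parts of all measured probes (-0.15 to 0.23 and -0.58 to 0.56); Igf1 6909, Irs1 9091 and Insr 4745 pass the dotted 1.5-fold lines and none passes the dashed 2-fold lines.

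Within Igf1, Insr and Irs1, the probe farthest downstream in the transcript gave a lower ratio than the one farthest upstream, by 0.55, 0.39 and 0.43. The same tilt was present across the arrays. Over 1387 transcripts with measured probes at least 1000 bases apart, the upstream ratio exceeded the downstream one in 62.1%, with a median of 0.08 and a range from -0.40 to 0.57 between the 5 and 95 percentiles. A larger difference than in these members was found in 5.41% (Igf1), 10.7% (Insr) and 8.94% (Irs1) of transcripts. Along Igf1 the order was not even, since the probe at 3252 stood above both those at 889 and 909. What part the position of a probe had in these ratios was not tested.

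**Figure D3:**
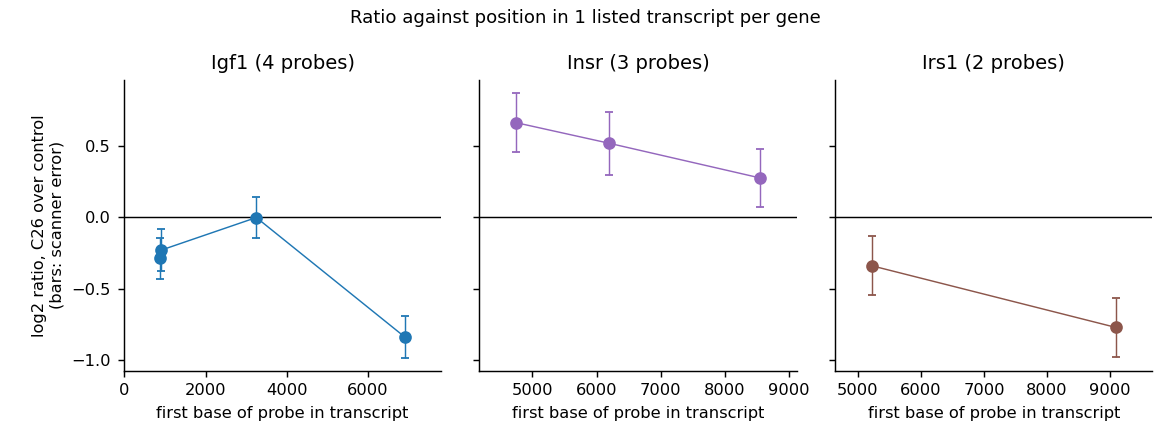
Log2 ratio against the first base of the probe in the transcript for Igf1 (4 probes of NM_010512), Insr (3) and Irs1 (2), with the scanner error as bars. Insr falls from 0.66 to 0.28 and Irs1 from -0.34 to -0.77 toward the 3′ end, while Igf1 stands at -0.00019 at base 3252 and -0.84 at base 6909.

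Other genes of the pathway were described with 1 value each, that of the brightest probe, over 19682 measured genes. Past 2-fold were 1.25% on the higher side and 1.15% on the lower, and past 1.5-fold 4.37% and 4.83%. Among 12 genes that bind, release or stabilise IGFs, 8 were measured and their median was -0.02, a sign that varied between settings. Stc2, an inhibitor of the protease that frees IGFs from their binding proteins, was the 1 gene past 2-fold, at 1.20 (error 0.23), though it stood at 0.63 in its lowest alternative. The binding proteins Igfbp2 and Igfbp6 were the lowest, at -0.72 (error 0.25) and -0.41 (error 0.20), and Igfbp2 stood at -0.29 in its weakest alternative, no longer 1.5-fold lower. Igfbp4, another binding protein, was second highest among the measured genes of the list at 0.13 (error 0.20). Pappa, that protease's gene, was above background on the C26 array alone. It was dim on both, with processed signals of 18.0 in the control and 23.2 in C26 (ratio 0.44, error 0.42).

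Of 12 genes of growth hormone signalling, 10 were measured, with a median of 0.13 and none past 2-fold in either direction. Ptpn1, a phosphatase of the insulin receptor and of JAK2, stood at 0.44 (error 0.20) and Socs3, a feedback inhibitor, at 0.38 (error 0.20). Socs1 stood lowest at -0.59 (error 0.21), the 1 gene of the list past 1.5-fold by its brightest probe. In its weakest alternative Socs1 stood at -0.35, no longer 1.5-fold lower. Socs2, another gene of the list, had -0.09 with its brightest probe. Its 3 other measured probes ran from -0.09 to 0.60, the highest of them past 1.5-fold. Stat5a, a transcription factor of this pathway, had -0.11.

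Among 18 further adaptors and brakes of the receptors, 16 were measured, with a median of -0.04. Grb14, a relative of Grb10 that inhibits the insulin receptor, was lower at -0.94 (error 0.20), and the exchange factor Sos1 at -0.80 (error 0.33) was dim and stood at -0.21 in its highest alternative. Cblb, a ubiquitin ligase known to target IRS1 in unloaded muscle, was higher at 0.78 (error 0.21), with a second probe at 0.87. Sh2b2, an adaptor of the insulin receptor, stood at 0.50 (error 0.21). In all, 1 was past 1.5-fold higher and 2 lower.

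Of the 18 PI3 kinase and AKT genes, all measured, 1 was 2-fold higher and 0 lower. It was Pik3r1, the regulatory subunit that docks on IRS proteins, at 1.28 (error 0.21), with a level 2.43-fold that of the control. Tbc1d4, an AKT substrate that controls glucose transporter traffic, had 0.72 (error 0.20), and Pik3cd and Inppl1 were lowest at -0.39 (error 0.21) and -0.27 (error 0.20). The list's median was 0.14. The 13 measured genes of a list of FoxO factors, known FoxO targets and glucocorticoid genes were all above 0, with a median of 1.64 and 9 past 2-fold in every setting. Fbxo32 (2.58, error 0.06) and Fkbp5 (2.37, error 0.20) led, and Nr3c1, the glucocorticoid receptor, and Foxo4 were lowest at 0.15 and 0.28. A second probe of Nr3c1 stood at 0.60. This list was chosen with such results of these arrays known and is given for scale beside Insr (0.28 to 0.66) and Irs2 (0.47).

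**Figure D4:**
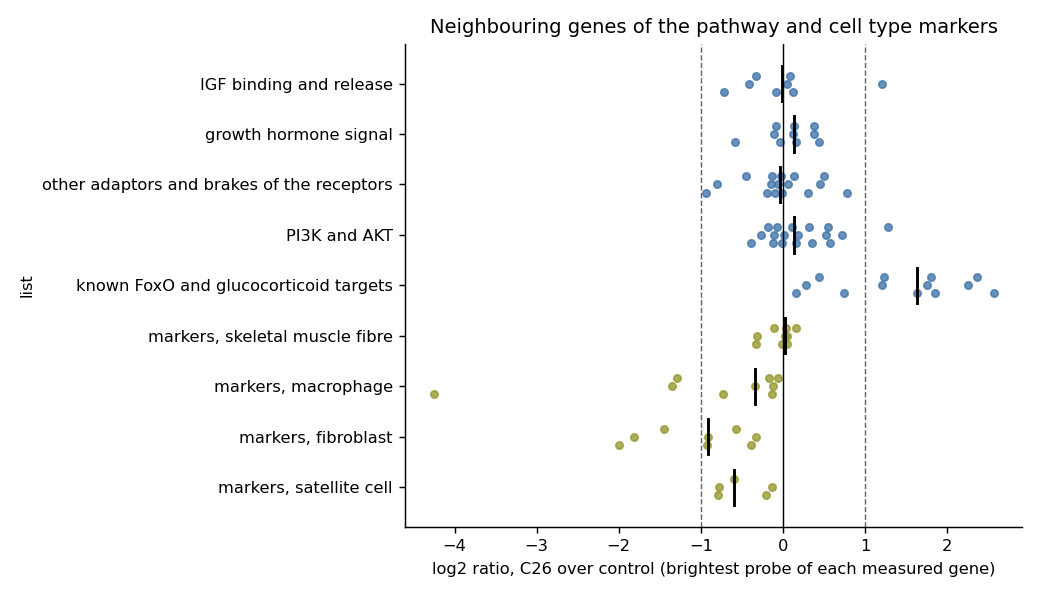
Log2 ratio of C26 over control for each measured gene (brightest probe) of 5 pathway lists in blue and 4 marker lists in olive, with the median of each list as a bar and 2-fold as dashed lines. The FoxO and glucocorticoid list has a median of 1.64, the 4 other pathway lists lie between -0.04 and 0.14, and the fibroblast list is at -0.92.

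The ratios of the 17 probes were then set beside those from 8 other ways of processing the same scans. The sign was the same in all 8 for 16 probes, and Igf1 3252 was the exception. Several settings could hardly change a sign. No member spot was flagged, and median and above-background percentile scaling shift every ratio by the same small amount. The deposited table nearly repeats quantile normalization. The 8 settings are therefore not independent checks, and the share of all probes that kept their sign was not computed. Igf1 6909 lay between -0.90 and -0.75, and Insr 6193 between 0.29 and 0.53.

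**Figure D5:**
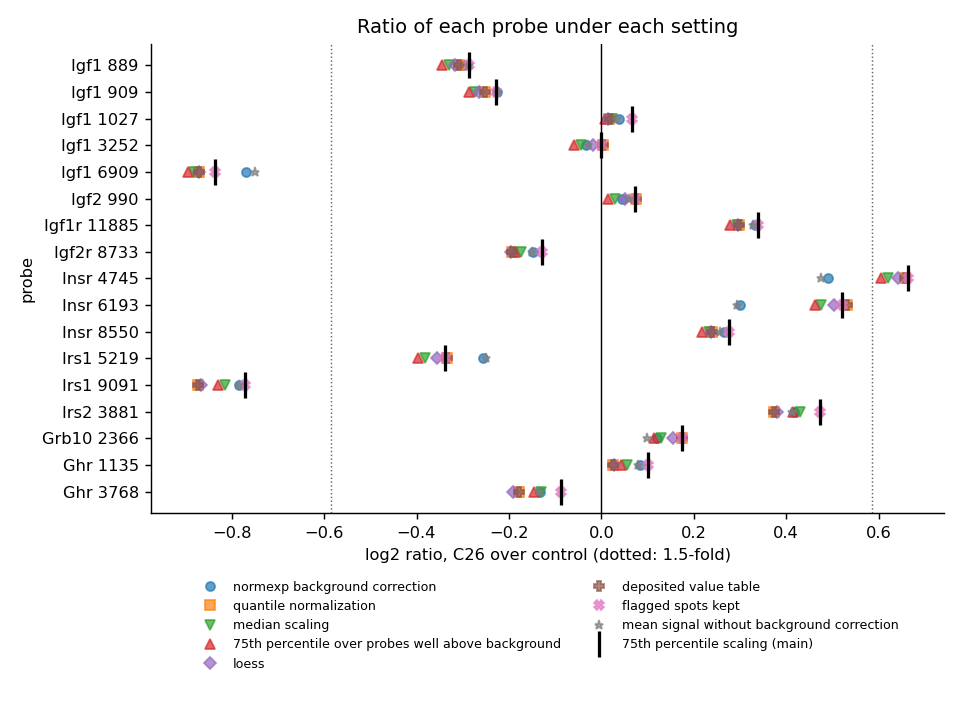
Log2 ratio of each of the 17 probes with 75th percentile scaling (black bar) and with 8 other settings (symbols), with 1.5-fold as dotted lines. Igf1 6909 and Irs1 9091 stay past the line in every setting, and Insr 4745 falls inside it with normexp correction (0.49) and without background correction (0.48).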

How the data were processed

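Total RNA labelled with Cy3 was hybridised to 1 one-colour Agilent array per group. Per the file headers, the software was Agilent Feature Extraction 10.7.1.1, and the submitters' processing notes give 9.5.1.1, while positions are on mm9. The deposited values are processed intensities, and their match to quantile normalized signals is given below. Per the file headers, the processed signal was background-subtracted and detrended within the array, with a surrogate for spots too low to measure (31.9% of control and 25.6% of C26 spots). Both arrays carried the same scan time.

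Flagged spots were left out (110 and 91 of 59305), log2 values of repeated spots were averaged, and each array's 75th percentile over non-control probes was subtracted. A probe counted as measured if well above background on both arrays (26781 probes). A gene of a list was read from its brightest probe, and older symbols were matched through RefSeq's table. Members, lists, named genes and sizes of 2-fold and 1.5-fold were chosen with earlier results of these data known. Named were every member probe and the 2 highest and 2 lowest measured genes of a pathway list. Pappa, Socs2, single marker genes and other probes of a gene were named after their values were seen. The deposited value table had a median of 19.75 in both columns, and quantile normalization of the processed signals came within 0.01 (log2) of 99.9% of its values in each. How the authors made it is not stated here. Scaling was tried on simulated data, a copy of the control array with known folds, noise and another array scale. Such data hold no difference between hybridisations or animals, so scaling between these 2 arrays was not tested. Alternatives were normexp (limma 3.58.1, R 4.3.3, offset 50), quantile, median, loess (span 0.3) and above-background percentile scaling, the deposited table, flagged spots kept, no background correction, and filters on dim probes. Other tools were Python 3.11.15, numpy 2.4.6, pandas 2.3.3, statsmodels 0.14.6 and matplotlib 3.10.9.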

Additional observations from a re-analysis of the deposited data

How the results depend on the processing

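With 1 array per group, no alternative can speak to the spread between animals, and no paired analysis was possible because each group has 1 sample. The mean over the Igf1 probes, -0.26 in the main setting, was -0.34 without the probe at 1027, -0.11 without the probe at 6909 and 0.067 with the brightest probe (1027) alone, so its sign depends on how probes are combined; under the other scalings and filters it moved by less than its scanner error. The counts of members past 2-fold (0 in every setting) and past 1.5-fold (3, or 2 with normexp and without background correction) and the median of the members stayed within 1.5 times or within the error. Over the probes and 8 alternative scalings, 132 of the values moved by less than their scanner error and 4 by more. Several of these settings differ little from the main one. The 4 were Insr 6193 with normexp (0.30) and without background correction (0.29), and Igf2r with quantile normalization and loess (-0.19 each). For the lists, settings beyond normexp, quantile and the mean over probes were chosen after seeing the data. Medians moved by more than their standard error over genes for satellite cell markers (-0.23 with normexp, -0.45 with the mean over probes, -0.17 without background correction), erythroid markers (2.01 to 2.31, against 2.37), muscle fibre markers (-0.03 with the above-background percentile, -0.14 with loess) and growth hormone signalling (0.03 with loess). Members read by 1 spot have an error near 0.20, and smaller ratios lie within the measurement of the spot. A larger ratio is a difference between these 2 arrays only, because the error leaves out the spread between animals. Over all measured probes the median size of a ratio was 0.20 and the median scanner error 0.21.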
